A study of Mus musculus with 11 samples.

Results

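Mouse jejunal villus epithelium that lacks Cdx2 was compared with the same tissue lacking Hnf4a by the nucleosomes that carry H3K4me2, with wild-type (WT) villi beside both. The comparison used 3 of the 11 libraries of the series, and the CDX2 and HNF4A peak lists served to sort regions. H3K4me2 counts of the double-knockout libraries titled Cdx2-Cdx1 and Cdx2-Hnf4a are given beside them and did not define any class. Both lack Cdx2 by any of their labels, which disagree on the second gene, so they are called by title. Each list gives called H3K4me2 nucleosomes with a score that is 10 times the −log10 of a p-value. Nucleosomes scoring 52 or more were kept in every list, which left 256788 in Cdx2 KO villi, 250250 in Hnf4a KO villi and 245406 in WT villi. The 5 H3K4me2 lists of the series held 1570833 nucleosomes as deposited.

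The study collected villus cells from jejunum to relate the chromatin marks of the gut lining to CDX2 and HNF4A binding, with each factor removed in turn. The Cdx2 KO, Hnf4a KO and WT mice were all on a mixed 129 and C57BL6 background. The sources used here do not give the mice's age, or how and in which cells each gene was deleted. Jejunum was incubated with 15 mM EDTA, and a 70 µm filter held back villi and let crypts through. Libraries came from pooled ChIP reactions with 10 to 20 ng of DNA. Both a formaldehyde-fixed and an unfixed, MNase-digested preparation were described, without saying which library used which. Each H3K4me2 group was 1 library, so nothing below tests a difference between genotypes. All intervals are exact 95% intervals that cover counting error only, and the number of reads behind the lists was not given. Whether the knockout villi still held epithelium of the same makeup could not be checked from nucleosome lists without a gene map of the same genome build. In bulk tissue, fewer cells carrying a mark and less of it per cell cannot be told apart.

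H3K4me2, dimethylated lysine 4 of histone H3, lies on nucleosomes at promoters and enhancers and often flanks a bound transcription factor on both sides. CDX2 is a homeodomain factor that sets intestinal identity during development and is kept in adult epithelium. HNF4A is a nuclear receptor that binds DNA as a dimer and drives genes of the absorptive enterocyte.

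Nucleosome by nucleosome, the 2 knockout lists overlapped each other slightly less than each overlapped WT. Of Cdx2 KO nucleosomes, 72.1% overlapped a Hnf4a KO nucleosome by 1 bp or more, and 74.2% of Hnf4a KO nucleosomes overlapped one of Cdx2 KO. WT nucleosomes covered 75.7% of the Cdx2 KO list and 77.3% of the Hnf4a KO list. The median score was 249.7 in Cdx2 KO, 206.8 in Hnf4a KO and 243.8 in WT. The Hnf4a KO list had been deposited down to a score of 1.7, against 51.3 in Cdx2 KO and 50.1 in WT, and 48.5% of its rows were dropped by the common threshold, against 2.04% in Cdx2 KO and 2.21% in WT.

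Regions were then compared as 5 kb windows, each called marked with 3 or more nucleosomes and empty with 0. Of 32761 windows marked in WT, 26215 (80.0%) were marked in both knockouts too. Windows empty in Cdx2 KO alone, with the mark present in Hnf4a KO and WT, numbered 456 or 1.39% of windows marked in WT. Windows empty in Hnf4a KO alone numbered 89, or 0.272%. A further 62 windows (0.189%) were empty in both knockouts. Whatever the other knockout held, 768 windows (2.34%) were empty in Cdx2 KO and 237 (0.723%) in Hnf4a KO. The thresholds left close neighbours outside each class. With 3 or more nucleosomes in Hnf4a KO, 729 windows held 1 in Cdx2 KO, and with 3 or more in Cdx2 KO, 430 windows held 1 in Hnf4a KO.

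The windows empty in Cdx2 KO alone were modest in most cases and large in a few. They held 0 nucleosomes in Cdx2 KO, a median of 4 in Hnf4a KO with a range of 3 to 21, and a median of 3 in WT with a range of 3 to 20. The 89 windows empty in Hnf4a KO alone had like medians and a lower top. They had a median of 4 and a highest count of 8 in Cdx2 KO, 0 in Hnf4a KO, and a median of 3 and a highest count of 7 in WT. Adjacent windows empty in Cdx2 KO alone joined into 441 runs, 15 of which spanned 2 or more windows, while no windows empty in Hnf4a KO alone were adjacent.

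The 2 kinds of empty window differed in which factor bound there in WT. A CDX2 peak of either WT library lay in 191 of the 456 windows empty in Cdx2 KO alone, which is 41.9% (37.3 to 46.6). It lay in 3 of the 89 windows empty in Hnf4a KO alone, which is 3.37% (0.701 to 9.54), and in 18.1% of all windows marked in WT. HNF4A peaks lay in 36.6% (32.2 to 41.2) of windows empty in Cdx2 KO alone and in 12.4% (6.33 to 21.0) of those empty in Hnf4a KO alone, against 33.4% of all windows marked in WT. Windows empty in Hnf4a KO alone thus held HNF4A peaks at a lower share than marked windows at large, and 84.3% of them had neither factor, against 41.7% of those empty in Cdx2 KO alone and 59.1% of all windows marked in WT.

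The CDX2 share rested mainly on the longer of the WT CDX2 peak lists, which held 12121 peaks against 7441 in the other. With library 1 alone, 39.0% of windows empty in Cdx2 KO alone and 16.4% of all windows marked in WT held a peak. With library 2 alone the shares were 12.9% and 4.73%. For sites called in both libraries they were 9.65% and 2.87%, and 0 of the 89 windows empty in Hnf4a KO alone held such a site, which allows a share of up to 4.06% by the exact interval. The share in windows empty in Cdx2 KO alone was above that of all marked windows under each of these definitions.

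**Figure D1:**
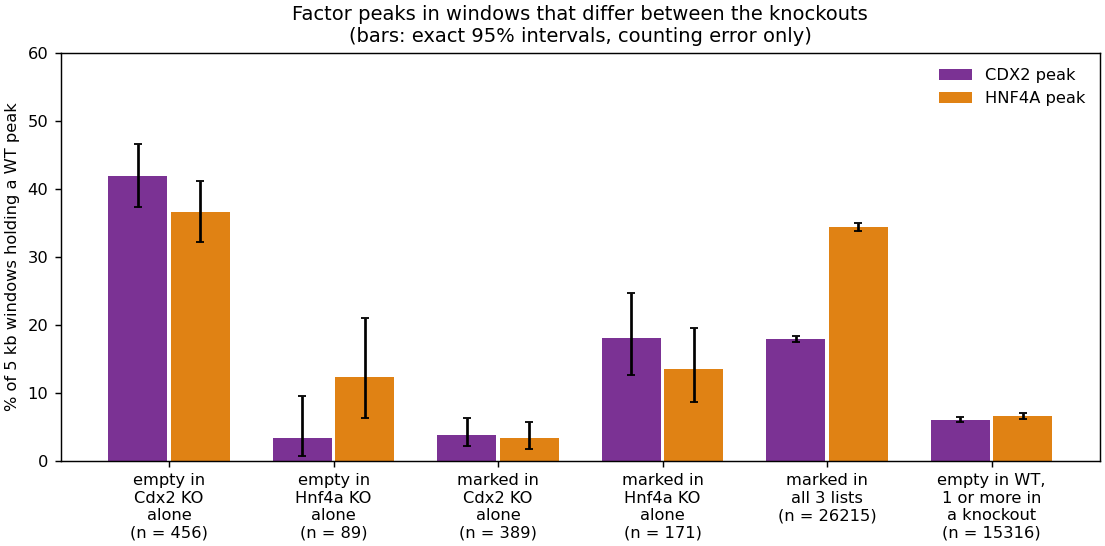
Share of 5 kb windows (y axis, percent) that hold a WT CDX2 peak of either library (purple) or a WT HNF4A peak (orange), for 6 window classes with their n under the axis and exact 95% intervals as bars. CDX2 peaks are in 41.9% of windows empty in Cdx2 KO alone and in 3.37% of those empty in Hnf4a KO alone, with windows marked in all 3 lists at 17.9%.

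At equal WT marking the CDX2 share of windows empty in Cdx2 KO alone stayed high. Among windows with 3 WT nucleosomes, 40.9% of those empty in Cdx2 KO alone held a CDX2 peak, against 12.2% of those marked in all 3 lists. At 4 WT nucleosomes the shares were 38.5% and 13.8%. At 5 to 6 they were 47.4% and 16.4%, and at 7 or more 45.2% and 22.1%. HNF4A shares in windows empty in Cdx2 KO alone were 30.6%, 37.5%, 47.4% (35.8 to 59.2) and 21 of 42 windows over the same 4 bins, against 23.9%, 25.5%, 31.6% and 42.7% in windows marked in all 3 lists. HNF4A was thus at the higher share in all 4 bins, by a wider margin than the 36.6% against 34.4% found without matching. Without matching, both factors were in 20.2% of windows empty in Cdx2 KO alone and in 10.9% of those marked in all 3 lists. HNF4A without CDX2 was in 16.4% (13.2 to 20.2) and 23.5%. In these unmatched shares HNF4A was more frequent only together with CDX2. At 7 or more WT nucleosomes the interval for windows empty in Cdx2 KO alone, 34.2 to 65.8, included the share of windows marked in all 3 lists. Most windows empty in Hnf4a KO alone, 54 of 89, had 3 WT nucleosomes. Of these, 3.70% (0.452 to 12.7) held CDX2 and 14.8% (6.62 to 27.1) held HNF4A, and both intervals include the shares of windows marked in all 3 lists at that count.

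Turned round, the share of windows that were empty differed with the factors present. Of windows marked in WT that held CDX2 without HNF4A, 4.00% were empty in Cdx2 KO alone and 0.121% in Hnf4a KO alone. With both factors the shares were 2.65% for Cdx2 KO and 0 of 3467 windows for Hnf4a KO, which allows up to 0.106%. With HNF4A but no CDX2 they were 1.00% and 0.147%, and with neither factor 0.982% and 0.388%. CDX2 binding was therefore the setting with the largest share empty in Cdx2 KO alone, and windows with neither factor had the largest share empty in Hnf4a KO alone, among these 4 kinds of window.

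The joint counts showed the same shift beyond the emptied windows. Among 5945 marked windows with a CDX2 peak, 53.3% had fewer nucleosomes in Cdx2 KO than in Hnf4a KO and 27.5% had more. Among 7464 with HNF4A but no CDX2, 42.0% had fewer and 35.6% more. Among 19352 with neither factor the order turned, with 27.4% having fewer and 46.3% more in Cdx2 KO. Over all windows marked in WT the shares were 35.4% fewer and 40.4% more.

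**Figure D2:**
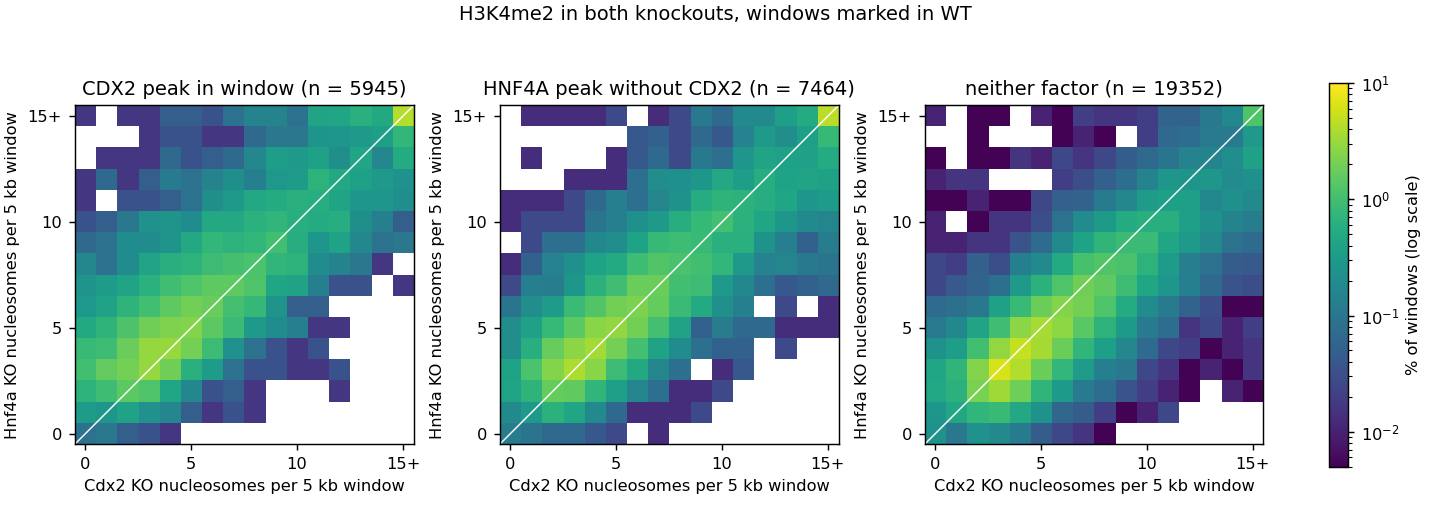
Called nucleosomes per 5 kb window in Cdx2 KO (x axis) and Hnf4a KO (y axis), for windows marked in WT with a CDX2 peak, with HNF4A but no CDX2, and with neither; colour is the percent of windows on a log scale, the white line is equality, and counts of 15 or more are pooled. With CDX2, 53.3% of windows lie above the line (fewer in Cdx2 KO), against 27.4% with neither factor.

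The regions below were taken by a fixed rule, the runs with the most nucleosomes in the lists where the class is marked. Positions are in mm9, and no gene is named because no gene map of that build was used. The top region empty in Cdx2 KO alone was on chromosome 11 at 118845001 to 118855000. It had 0 nucleosomes in Cdx2 KO, 27 in Hnf4a KO and 28 in WT, and 0 in both double-knockout libraries. It held a CDX2 peak of library 1 and an HNF4A peak in WT. The next, on chromosome 1 at 130215001 to 130225000, had 0 in Cdx2 KO, 20 in Hnf4a KO and 26 in WT. Both WT CDX2 libraries and the HNF4A library had a peak there, CDX2 was also called there in Hnf4a KO, and HNF4A was not called there in Cdx2 KO. In these 2 regions a block of marked chromatin of WT size remained on the list without Hnf4a and was off it without Cdx2.

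The third region, on chromosome 2 at 110435001 to 110445000, had 0 nucleosomes in Cdx2 KO, 14 in Hnf4a KO and 22 in WT, with CDX2 peaks of both libraries and the nearest HNF4A peak 5.20 kb away. On chromosome 5 at 129595001 to 129605000 the counts were 0 in Cdx2 KO, 16 in Hnf4a KO and 12 in WT, with CDX2 of library 1 and HNF4A. On chromosome 2 at 124440001 to 124450000 they were 0 in Cdx2 KO, 12 in Hnf4a KO and 13 in WT, with CDX2 of both libraries and no HNF4A peak. On chromosome 10 at 116320001 to 116330000 they were 0, 13 and 9 in the same order of libraries, with CDX2 of library 1 and HNF4A. These 6 of the 10 top regions held a CDX2 peak. None had a Cdx2 KO nucleosome at any deposited score, but that list reached down only to 51.3, so little could be found below the threshold of 52.

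The other 4 of the 10 held neither factor. On chromosome 6 at 78330001 to 78335000 there were 0 nucleosomes in Cdx2 KO, 15 in Hnf4a KO and 15 in WT, with the nearest CDX2 peak 17.4 kb away and HNF4A 107 kb away. On chromosome 4 at 106405001 to 106410000 there were 0 in Cdx2 KO, 12 in Hnf4a KO and 15 in WT, with both factors within 5 kb. On chromosome 10 at 101835001 to 101840000 there were 0 in Cdx2 KO, 12 in Hnf4a KO and 10 in WT, with CDX2 180.1 kb away. On chromosome 19 at 34690001 to 34700000 there were 0 in Cdx2 KO, 15 in Hnf4a KO and 8 in WT. The last of these had low scores, and with the 150000 highest-scoring nucleosomes of each list it was empty in both knockouts.

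The windows empty in Hnf4a KO alone held fewer nucleosomes, and most had Hnf4a KO nucleosomes below the threshold. The top one, on chromosome 2 at 166830001 to 166835000, had 7 nucleosomes in Cdx2 KO, 0 in Hnf4a KO and 7 in WT, but 3 Hnf4a KO nucleosomes below the threshold. The second, on chromosome 3 at 96075001 to 96080000, had 6 in Cdx2 KO, 0 in Hnf4a KO and 6 in WT. It had no Hnf4a KO nucleosome at any score, and both double knockouts had 6. No other window of the 10 top ones lacked a Hnf4a KO nucleosome at every deposited score.

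For the class as a whole, 80 of 89 windows had a Hnf4a KO nucleosome at some lower score and 56 had 3 or more. The comparable check on the other side was narrower, because the Cdx2 KO list hardly extended below 52, and 30 of the 456 windows (6.58%) had a Cdx2 KO nucleosome at any deposited score. None of the 10 top windows empty in Hnf4a KO alone held a WT CDX2 or HNF4A peak. In 4 of them the Hnf4a KO count was above the Cdx2 KO count once the lists were used as deposited.

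Windows marked in 1 knockout and empty in WT were again more numerous for Cdx2 KO at the common threshold. That order turned with the lists as deposited, where far more windows were marked in Hnf4a KO alone. Among 15316 windows empty in WT with a nucleosome in either knockout, 389 (2.54%) were marked in Cdx2 KO alone, 171 (1.12%) in Hnf4a KO alone and 75 (0.49%) in both. CDX2 peaks were in 3.86% (2.17 to 6.28) of those marked in Cdx2 KO alone and in 18.1% (12.7 to 24.7) of those marked in Hnf4a KO alone, against 6.04% of the 15316. HNF4A peaks were in 3.34% (1.79 to 5.65) and 13.5% (8.72 to 19.5) of the same classes, against 6.59%. The 15316 windows had a median of 1 nucleosome in each knockout and are not matched to the classes on count. Windows marked in both knockouts held CDX2 in 13.3% (6.58 to 23.2) and HNF4A in 14.7% (7.56 to 24.7). Windows marked only in Hnf4a KO thus held WT peaks of both factors at higher shares than those marked only in Cdx2 KO, of which 93.1% held neither.

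Among windows marked in Cdx2 KO alone, 311 of 389 (79.9%) had a Hnf4a KO nucleosome below the threshold and 172 (44.2%) had 3 or more. Of all 15316 windows empty in WT with a nucleosome in either knockout, 85.1% had a Hnf4a KO nucleosome at any deposited score. In 38.7% there were 3 or more, and both of these shares include nucleosomes above the threshold. The top one, on chromosome 9 at 78040001 to 78045000, had 14 nucleosomes in Cdx2 KO, 0 in Hnf4a KO and 0 in WT. Hnf4a KO had 11 there below the threshold, and the double knockouts had 18 in the library titled Cdx2-Cdx1 and 16 in the library titled Cdx2-Hnf4a. On chromosome 18 at 38755001 to 38760000 there were 12 in Cdx2 KO and 0 in Hnf4a KO at any score, with 0 in WT and 2 in each double knockout. On chromosome 7 at 4980001 to 4985000 there were 10 in Cdx2 KO and 0 in the other 4 libraries, also with Hnf4a KO taken at any score. The last window is a block seen in a single library.

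The other 3 of the 6 named windows marked in Cdx2 KO alone had 10 or 11 nucleosomes in Cdx2 KO, 0 in Hnf4a KO and 0 in WT, with 5 to 17 in the double knockouts. They lay on chromosome 5 at 148085001, chromosome 19 at 58835001 and chromosome 7 at 149620001. All 3 had Hnf4a KO nucleosomes below the threshold, 1, 8 and 3 of them.

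The top region marked in Hnf4a KO alone was on chromosome 7 at 13905001 to 13920000, a run of 3 windows with 0 nucleosomes in Cdx2 KO, 27 in Hnf4a KO and 0 in WT. Both double knockouts had 0 there, and the only WT peak was a weak HNF4A peak with a score of 67.8. Counts of 0 in Cdx2 KO, 10 in Hnf4a KO and 0 in WT were found both on chromosome 2 at 122115001 to 122120000 and in a window of chromosome 10 at 61600001 to 61605000. A CDX2 peak was called in Hnf4a KO in the chromosome 10 window, where neither WT library had one. The other 3 named windows had 7 or 8 in Hnf4a KO, and 1 of them held a WT HNF4A peak. The 6 regions had 0 to 2 nucleosomes in each double knockout.

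A direct comparison that did not condition on WT gave a like picture. Of 39273 windows marked in either knockout, 1203 (3.06%) were higher in Cdx2 KO and 1583 (4.03%) higher in Hnf4a KO by 3-fold or more, with 1 added to each count. CDX2 peaks were in 4.82% (3.68 to 6.19) of windows higher in Cdx2 KO and in 36.4% (34.0 to 38.8) of those higher in Hnf4a KO, against 17.0% of all. HNF4A peaks were in 7.65% and 36.3%, against 30.7% of all. WT marked 20.6% of the windows higher in Cdx2 KO and 50.1% of those higher in Hnf4a KO, both below the 79.3% of all 39273. By count, WT was nearer to Hnf4a KO in 74.1% of windows higher in Cdx2 KO and in 52.9% of windows higher in Hnf4a KO, against 39.5% of all. WT thus resembled Hnf4a KO in most windows higher in Cdx2 KO, and was split more evenly in windows higher in Hnf4a KO.

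With a plain excess of 8 or more nucleosomes, 141 windows were higher in Cdx2 KO and 177 in Hnf4a KO. CDX2 peaks were in 4.96% of those higher in Cdx2 KO and in 50.8% of those higher in Hnf4a KO. HNF4A peaks were in 24.8% and 54.2%. The largest excess in Hnf4a KO was 21 nucleosomes, shared by a window of the top chromosome 11 region, from 118850001 to 118855000, and one on chromosome 3 at 96635001 to 96640000. The chromosome 3 window had 2 nucleosomes in Cdx2 KO, 23 in Hnf4a KO and 18 in WT, with an HNF4A peak and the nearest CDX2 peak 6.90 kb away. On chromosome 8 at 77400001 to 77405000 there were 4 in Cdx2 KO, 20 in Hnf4a KO and 20 in WT, with CDX2 of library 1. On chromosome 11 at 116610001 to 116615000 there were 3 in Cdx2 KO, 20 in Hnf4a KO and 7 in WT, with a CDX2 peak 0.075 kb outside the window. The chromosome 8 window had equal counts in Hnf4a KO and WT, and the chromosome 3 and chromosome 11 windows just given had more in Hnf4a KO.

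In the other direction, chromosome 8 at 124810001 to 124815000 had 18 nucleosomes in Cdx2 KO, 2 in Hnf4a KO and 6 in WT. Chromosome 6 at 87335001 to 87340000 had 15 in Cdx2 KO, 0 in Hnf4a KO and 1 in WT. Chromosome 17 at 53980001 to 53985000 had 16 in Cdx2 KO, 1 in Hnf4a KO and 0 in WT. The double knockouts had 7 to 18 in these 3 windows, none of which held a WT peak of either factor. In each of them Cdx2 KO stood above Hnf4a KO and WT. With the lists as deposited, Hnf4a KO had 12 in the chromosome 8 window, which left a difference of 6, and 2 in each of the other 2 windows.

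Bound sites gave the comparison at higher resolution. Nucleosomes within 1 kb of each site centre were summed over sites and divided by the length of the list. At 684 co-occupied sites, where peaks of both WT CDX2 libraries overlap each other and an HNF4A peak, the mean was 3.12 nucleosomes per site in Cdx2 KO, 4.23 in Hnf4a KO and 3.86 in WT. The Cdx2 KO over Hnf4a KO ratio was 0.720 (0.681 to 0.762). At 900 CDX2 sites without HNF4A the means were 1.42 in Cdx2 KO, 2.16 in Hnf4a KO and 1.93 in WT, with a ratio of 0.642 (0.598 to 0.689). Against WT, Cdx2 KO was at 0.774 at co-occupied sites and 0.702 at CDX2 sites without HNF4A, and Hnf4a KO was at 1.08 and 1.09. The gap at CDX2 sites came mostly from fewer nucleosomes in Cdx2 KO and to a smaller part from a ratio above 1 in Hnf4a KO.

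At 18675 HNF4A peaks without CDX2 the means were 2.73 in Cdx2 KO, 2.99 in Hnf4a KO and 2.95 in WT, and the ratio was 0.889 (0.878 to 0.900). Hnf4a KO stood at 0.996 (0.984 to 1.01) of WT at these peaks of the deleted factor, and Cdx2 KO at 0.885 (0.875 to 0.896). HNF4A peaks that met a CDX2 peak of 1 library, 2940 of them, were in between at 0.793 (0.773 to 0.814). In 42141 windows of 2 kb with a WT nucleosome and no factor peak within 5 kb the ratio was 1.06 (1.05 to 1.07). Cdx2 KO was at 0.958 and Hnf4a KO at 0.900 of WT there. Unlike the sites, these windows were picked for a WT nucleosome, which by itself lowers both ratios to WT. The values against WT therefore cannot show less marking than in WT away from the factors. The ratio of Cdx2 KO to Hnf4a KO was thus lowest at CDX2 sites and above 1 away from both factors.

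These ratios depend on the common threshold. With the lists as deposited, in which the Hnf4a KO list is far longer and each list is scaled by its own length, the ratio was 1.01 at co-occupied sites, 0.747 where CDX2 bound without HNF4A, 1.17 at HNF4A peaks free of CDX2 and 1.35 away from both. The order of the site classes was kept, and the side of 1 was not at co-occupied and HNF4A sites. When CDX2 library 1 was left out the ratio at CDX2 sites without HNF4A was 0.762, and it was 0.769 when library 2 was left out.

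Site by site, the shift was broad. Of 648 co-occupied sites with a WT nucleosome, 60.8% had fewer nucleosomes in Cdx2 KO than in Hnf4a KO and 15.0% had more. Of 542 CDX2 sites without HNF4A, 61.1% had fewer and 14.6% more. Of 13696 HNF4A peaks without CDX2, 42.9% had fewer and 26.4% more. Over all 84740 windows of 2 kb with a WT nucleosome, 30.2% had fewer and 31.7% more. Sites left with no nucleosome were 14.7% in Cdx2 KO and 1.08% in Hnf4a KO at co-occupied sites, and 29.0% and 3.69% at CDX2 sites without HNF4A. The same shares over all 2 kb windows were 14.4% in Cdx2 KO and 11.5% in Hnf4a KO.

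The size of the gap varied with how densely a site was marked in WT. At CDX2 sites without HNF4A the ratio was 0.418 (0.354 to 0.492) with 1 to 2 WT nucleosomes, 0.677 with 3 to 4, 0.771 with 5 to 6 and 0.866 (0.744 to 1.01) with 7 or more. At co-occupied sites the same bins gave 0.444 (0.371 to 0.530), 0.649, 0.776 and 0.936 (0.837 to 1.05). HNF4A peaks without CDX2 had 0.756 in the lowest bin and 0.974 in the highest. Windows with no factor nearby stayed between 1.05 and 1.09. At the most densely marked CDX2 sites of either kind the interval included 1.

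**Figure D3:**
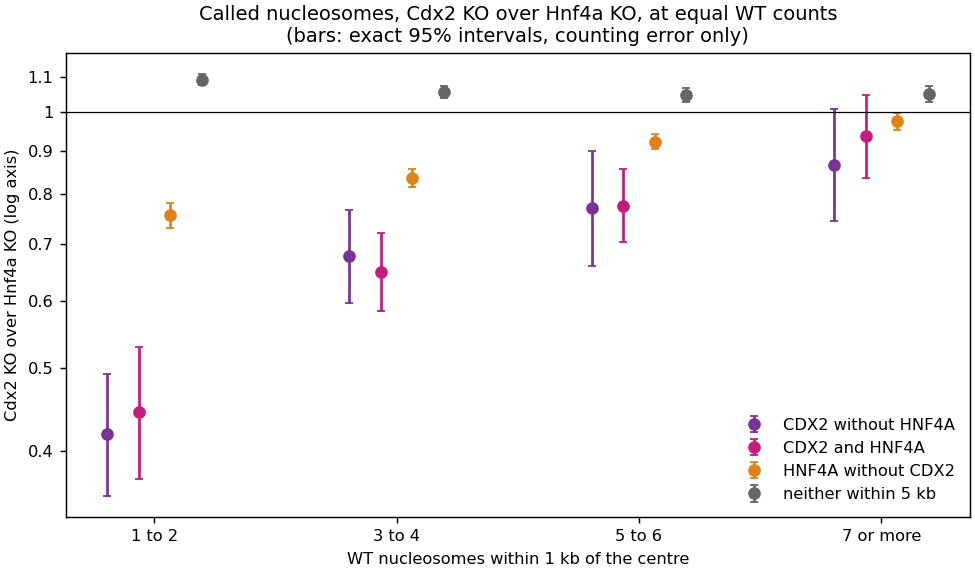
Ratio of called H3K4me2 nucleosomes, Cdx2 KO over Hnf4a KO (log y axis), within 1 kb of site centres or in 2 kb windows, by WT nucleosome count (x axis) and kind of site, with exact 95% intervals as bars. Both kinds of CDX2 site lie near 0.4 at 1 to 2 WT nucleosomes and near 0.9 at 7 or more, while windows with neither factor within 5 kb stay above 1.

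The strength of factor binding made less difference than the WT mark. With CDX2 sites without HNF4A ranked by CDX2 score and cut into 4 equal groups, from the lowest scores up, the ratio was 0.649, 0.654, 0.685 and 0.592, with overlapping intervals for adjacent groups. The 4 groups of co-occupied sites were between 0.708 and 0.745. At HNF4A peaks without CDX2 the ratio was 0.920 (0.894 to 0.946) in the group with the lowest and 0.863 (0.845 to 0.881) in the group with the highest HNF4A scores.

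Whether the remaining factor was still called at a site in the knockout went along with the H3K4me2 gap for HNF4A and hardly for CDX2. At co-occupied sites that kept an HNF4A peak in Cdx2 KO, 234 of 684, the ratio was 0.868 (0.797 to 0.945). At the 450 where HNF4A was not called in Cdx2 KO it was 0.622 (0.576 to 0.671). At HNF4A peaks without CDX2 the ratios were 0.927 (0.910 to 0.944) where HNF4A was kept and 0.863 (0.850 to 0.877) where it was not called. The kept sites were also more densely marked in WT, with 4.68 nucleosomes per co-occupied site against 3.43, and the part of this in the difference was not tested. Splitting co-occupied sites by whether CDX2 was called in Hnf4a KO gave 0.750 (0.688 to 0.817) with CDX2 and 0.698 (0.648 to 0.753) without it.

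The windows empty in Cdx2 KO alone showed the same link. Of the 167 that held a WT HNF4A peak, 17 (10.2%, 6.04 to 15.8) had an HNF4A peak in Cdx2 KO. The share that kept HNF4A in Cdx2 KO was 47.4% over all windows marked in WT with a WT HNF4A peak, and in most such windows empty in Cdx2 KO alone HNF4A was not called either. CDX2 was called in Hnf4a KO in 30 of the 191 that held a WT CDX2 peak of either library (15.7%, 10.9 to 21.7), against 711 of all 5945 marked windows with such a peak. For CDX2 sites of both WT libraries it was called in 20 of 44 (45.5%, 30.4 to 61.2), against 42.0%. The windows empty in Cdx2 KO alone thus kept HNF4A at a lower share than marked windows at large, and each CDX2 interval includes the share over marked windows. The HNF4A contrast was not matched on WT count or on CDX2. Of the 167 windows, 92 also held CDX2, against 3467 of the 10931 marked windows with HNF4A.

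Around the centres of co-occupied sites and of HNF4A peaks the gap lay beside the bound position, and at CDX2 sites without HNF4A it was present at the centre too. Within 100 bp of the centre of co-occupied sites the ratio was 1.03 (0.879 to 1.22). It was 0.727 (0.673 to 0.786) at 100 to 500 bp, 0.626 (0.568 to 0.689) at 500 to 1000 bp and 0.683 (0.626 to 0.746) at 1000 to 2000 bp. CDX2 sites without HNF4A had 0.779 (0.649 to 0.934) at the centre and 0.593 (0.537 to 0.656) at 100 to 500 bp. HNF4A peaks without CDX2 had 0.977 (0.944 to 1.01) at the centre and 0.864 (0.850 to 0.879) at 100 to 500 bp. The density at 100 to 500 bp of co-occupied sites was 19.8 nucleosomes per 100 sites and 100 bp in Cdx2 KO, 27.2 in Hnf4a KO and 25.7 in WT, against 21.7, 21.0 and 23.2 at the centre. At these co-occupied sites Hnf4a KO and WT had more nucleosomes per 100 bp over 100 to 500 bp than at the centre, and Cdx2 KO did not. In the bins at 100 to 200 bp alone, Cdx2 KO had 23.5 and 24.7 per 100 sites on the 2 sides. It had 21.7 and 21.8 in the bins next to the centre. At CDX2 sites without HNF4A no genotype had more when the whole 100 to 500 bp was averaged. The densities there and at the centre were 8.46 and 11.6 in Cdx2 KO, 14.2 and 14.9 in Hnf4a KO, and 13.4 and 14.9 in WT. The bins at 100 to 200 bp alone were higher in WT, with 17.8 and 19.3 against 16.3 and 13.6 next to the centre. Hnf4a KO had 17.8 and 17.8 against 15.0 and 14.8, and Cdx2 KO had 11.6 and 12.1 against 10.1 and 13.2.

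**Figure D4:**
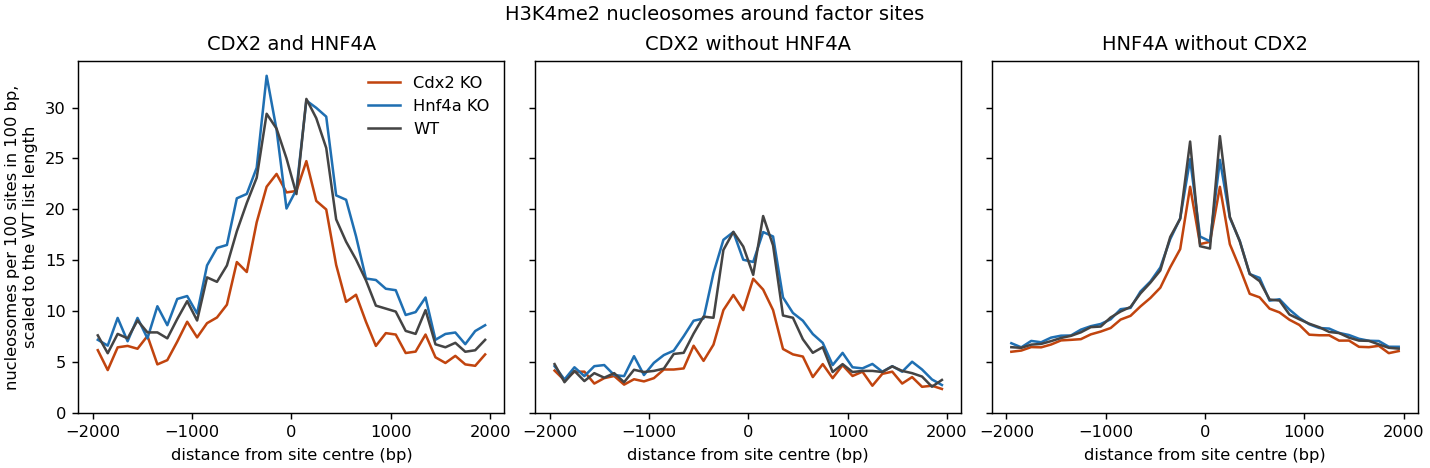
Called H3K4me2 nucleosomes per 100 sites and 100 bp, scaled to the length of the WT list (y axis), by distance from the site centre (x axis, bp), for Cdx2 KO (red), Hnf4a KO (blue) and WT (grey). At both kinds of CDX2 site the Cdx2 KO line runs below the other lines on the flanks, while at HNF4A peaks without CDX2 the lines lie close, with ratios of Cdx2 KO to Hnf4a KO of 0.864 to 0.977 within 1 kb.

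The 4 co-occupied sites with the largest excess in Hnf4a KO had 1 to 3 nucleosomes within 1 kb in Cdx2 KO, 7 to 9 in Hnf4a KO and 4 to 7 in WT. None of the 4 kept an HNF4A peak in Cdx2 KO. An example on chromosome 5 at 53434497 to 53435756 had 1 in Cdx2 KO, 7 in Hnf4a KO and 7 in WT. The 4 with the largest excess in Cdx2 KO had 6 to 10 in Cdx2 KO, 3 to 5 in Hnf4a KO and 6 to 7 in WT, and 2 of them kept HNF4A in Cdx2 KO. On chromosome 6 at 137513736 to 137514741 the counts were 10 in Cdx2 KO, 5 in Hnf4a KO and 7 in WT. The first set thus showed counts below WT in Cdx2 KO and at or above WT in Hnf4a KO. The second showed counts below WT in Hnf4a KO and at or above WT in Cdx2 KO.

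At CDX2 sites without HNF4A the 4 largest excesses in Hnf4a KO all had 0 nucleosomes in Cdx2 KO, with 6 to 7 in Hnf4a KO and 7 to 8 in WT. They included the site on chromosome 1 at 130224368 to 130225341 inside the second region above. On chromosome 8 at 25544863 to 25545550 the counts were 0 in Cdx2 KO, 7 in Hnf4a KO and 7 in WT, and the library titled Cdx2-Cdx1 had 6. The reverse excess was small, at most 4 nucleosomes in Cdx2 KO against 0 in Hnf4a KO and 3 in WT, on chromosome 7 at 119418017 to 119418785, and with the lists as deposited Hnf4a KO was 2 above Cdx2 KO there. At HNF4A peaks without CDX2 the largest excesses in Hnf4a KO came from 2 places already named. Of the 4 peaks, 3 were on chromosome 3 between 96633891 and 96638075 and 1 was in the top region of chromosome 11. The largest excesses in Cdx2 KO were on chromosome 2 at 179962346, with 10 in Cdx2 KO, 2 in Hnf4a KO and 4 in WT, and on chromosome 3 at 14887742, with 9, 2 and 6, and both kept an HNF4A peak in Cdx2 KO.

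The ratio was higher with distance from a peak. In marked windows without HNF4A the ratio was 0.898 (0.877 to 0.918) with a CDX2 peak inside, 0.999 with one up to 5 kb away, 1.04 at 5 to 20 kb, 1.07 at 20 to 100 kb and 1.08 (1.06 to 1.10) beyond 100 kb. In marked windows without CDX2 the ratio by distance from HNF4A was 0.950 (0.938 to 0.961) with a peak inside, 1.02, 1.05, 1.07 and 1.07 (1.05 to 1.10) in the same steps. The share of all marked windows empty in Cdx2 KO alone was 3.21% with a CDX2 peak inside, 1.47% up to 5 kb, 0.977% at 5 to 20 kb and 0.868% at 20 to 100 kb. In these 2 series the interval lay below 1 only with a peak in the window, but this did not extend to all series. With HNF4A windows included, the ratio was 0.956 (0.939 to 0.972) with a CDX2 peak up to 5 kb away. For CDX2 sites of both libraries it was 0.770 with a site inside, 0.875 up to 5 kb, 0.927 at 5 to 20 kb, 0.970 (0.955 to 0.985) at 20 to 100 kb and 1.00 beyond, and without HNF4A in the window it was 0.924 (0.873 to 0.978) up to 5 kb.

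**Figure D5:**
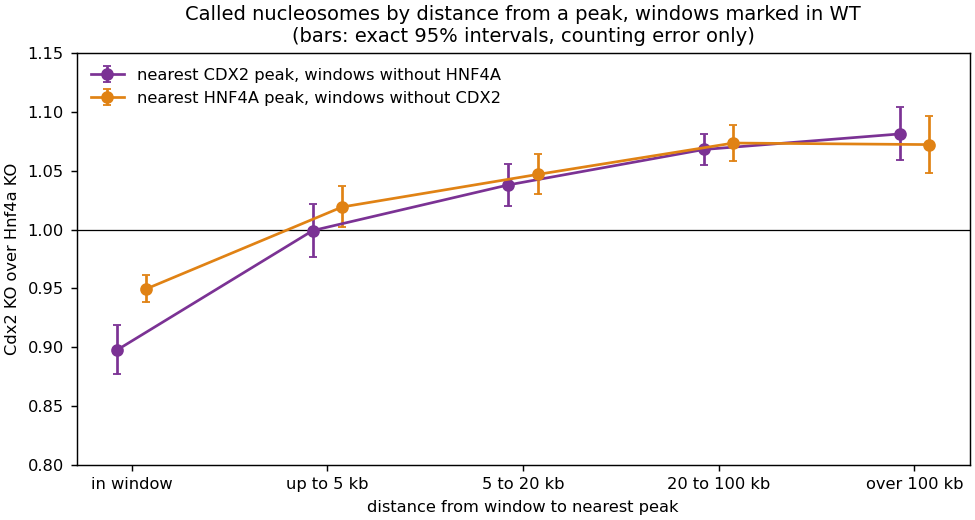
Ratio of called nucleosomes, Cdx2 KO over Hnf4a KO (y axis), in windows marked in WT by distance from the nearest CDX2 peak (purple, windows without HNF4A) or HNF4A peak (orange, windows without CDX2), with exact 95% intervals as bars. The ratio is 0.898 and 0.950 with a peak in the window and 1.07 to 1.08 beyond 20 kb.

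Both double-knockout libraries lack Cdx2 by any of their labels, and their titles disagree with their other labels on the second gene. They are called here by title and were not used to define the windows. Of the 456 windows empty in Cdx2 KO alone, 220 (48.2%, 43.6 to 52.9) were empty in the library titled Cdx2-Cdx1 and 368 (80.7%, 76.8 to 84.2) in the library titled Cdx2-Hnf4a. Of all windows marked in WT, 2.30% and 5.33% were empty in these libraries. Those of the 456 that held CDX2 but no HNF4A were empty in 52.5% (42.2 to 62.7) and 84.8% (76.2 to 91.3) of cases, and those that held neither factor in 47.9% (40.6 to 55.2) and 75.3% (68.5 to 81.2). A window empty in Cdx2 KO alone was thus empty in further Cdx2-deleted libraries at a far higher share than marked windows at large, with or without a peak in it. These shares were not matched on WT count. Of the 456 windows, 242 had 3 WT nucleosomes, against 7892 of all 32761 marked windows. Windows with 3 WT nucleosomes were empty in Cdx2 KO in 6.31% of cases, against 2.34% of all marked windows.

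The other window classes were also counted in these libraries. Of the 89 windows empty in Hnf4a KO alone, 16.9% were empty in the library titled Cdx2-Cdx1 and 7.87% (3.22 to 15.5) in that titled Cdx2-Hnf4a. Of all windows marked in WT, 2.30% and 5.33% were empty there. In the library titled Cdx2-Hnf4a 68.5% (57.8 to 78.0) of the 89 were marked, against 82.4% of all windows marked in WT. These shares were not matched on WT count. The class needs marking in Cdx2 KO, so marking in further Cdx2-deleted libraries is partly built in. Of the 389 windows marked in Cdx2 KO alone, 50.9% were marked in the library titled Cdx2-Cdx1 and 63.5% in that titled Cdx2-Hnf4a. Of all 15316 windows empty in WT with a nucleosome in either knockout, 12.2% and 13.4% were marked in these libraries. Of the 171 marked in Hnf4a KO alone, 55.0% and 78.9% were empty in these libraries, against 41.0% and 42.0% of the 15316. The 15316 windows had a median of 1 nucleosome in Cdx2 KO and in Hnf4a KO, whereas both classes needed 3 or more. The shares set against them were therefore not matched on count. At co-occupied sites the mean was 3.45 nucleosomes in the library titled Cdx2-Cdx1 and 2.63 in that titled Cdx2-Hnf4a, against 3.12 in Cdx2 KO, 4.23 in Hnf4a KO and 3.86 in WT.

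By chromosome the 2 knockouts were evenly matched. The ratio of Cdx2 KO to Hnf4a KO nucleosomes ran from 0.957 on chromosome 3 to 1.03 on chromosome 2 among the autosomes and was 1.01 on X. The Y chromosome had 74 nucleosomes in Cdx2 KO, 129 in Hnf4a KO and 101 in WT. Windows empty in Cdx2 KO alone made up 0.912% of marked windows on X and 1.02% to 1.88% on each autosome, so that no autosome carried the set.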

How the data were processed

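The deposited nucleosome lists give a score per nucleosome, headed as −log10 of a p-value multiplied by 10, and the deposited peak lists, which name MACS, give a peak score whose scale is not stated. Coordinates are in mm9, per the submitters' processing notes. The aligner, nucleosome caller, control and thresholds were not given in the sources used here. Nucleosomes scoring 52 or more were counted by their centre in 5 kb windows and within 1 kb of site centres, and the mitochondrial chromosome was left out. A factor was present where a WT peak overlapped by 1 bp or more. Site ratios were divided by list length. With 1 library per H3K4me2 group no test was run. Shares have Clopper-Pearson and ratios exact binomial 95% intervals. Regions were named by rank: runs of windows of a class by summed nucleosomes (the 10 top for windows empty in 1 knockout, 6 for windows marked in 1), the 6 windows and the 4 sites of each kind with the largest difference each way. Classes, regions and settings were chosen with earlier results of these data known. Counting code was tested on simulated data. Python 3.11.15, numpy 2.4.6, pandas 2.3.3 and scipy 1.17.1 were used. Alternatives changed the threshold, window, count for marked, radius, scaling and peak set.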

Additional observations from a re-analysis of the deposited data

Results flagged for a closer look

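At CDX2 sites the 2 knockouts stood on opposite sides of WT in called H3K4me2 nucleosomes at the common threshold. At co-occupied CDX2 and HNF4A sites the ratio to WT was 0.774 (0.731 to 0.820) in Cdx2 KO and 1.08 (1.02 to 1.13) in Hnf4a KO. At CDX2 sites without HNF4A it was 0.702 (0.652 to 0.754) in Cdx2 KO and 1.09 (1.02 to 1.17) in Hnf4a KO. The difference between the knockouts was not tested, since each genotype was 1 library and the intervals cover counting error only. Both ratios share the WT list. With the lists as deposited, both knockouts were below WT. The ratios were then 0.775 in Cdx2 KO and 0.764 in Hnf4a KO at co-occupied sites, and 0.702 in Cdx2 KO and 0.939 in Hnf4a KO at CDX2 sites without HNF4A. At sites with 7 or more WT nucleosomes Hnf4a KO was also below WT, at 0.875 (0.786 to 0.974) where HNF4A was present and 0.891 (0.772 to 1.03) where it was not. These sites were picked on the WT count that is also the divisor, which by itself lowers the ratio. Such ratios therefore cannot show whether Hnf4a KO differs from WT there.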

How the results depend on the processing

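No paired analysis was possible because each H3K4me2 group had 1 library. The values below give windows empty in Cdx2 KO alone first, then empty in Hnf4a KO alone, marked in Cdx2 KO alone and marked in Hnf4a KO alone. With a score of 100 or more, 290 windows were empty in Cdx2 KO alone and 78 marked in Hnf4a KO alone, and HNF4A peaks were in 49.0% of windows empty in Cdx2 KO alone. With the lists as deposited the counts were 723, 10, 80 and 7450, and CDX2 shares of the first 2 classes were 33.5% and 10.0%. With the 150000 highest-scoring nucleosomes they were 238, 48, 138 and 70, with CDX2 in 10.4% of windows empty in Hnf4a KO alone and HNF4A in 53.4% of windows empty in Cdx2 KO alone. With 5 or more nucleosomes for marked they were 78, 9, 52 and 21, with CDX2 in 55.1% and 0% of the first 2 classes and HNF4A in 51.3% of the first. Windows of 10 kb gave CDX2 in 48.0% of windows empty in Cdx2 KO alone and HNF4A in 24.7% of those empty in Hnf4a KO alone. Taking peaks that score at or above their list's median gave CDX2 in 29.2% and HNF4A in 23.9% of windows empty in Cdx2 KO alone. Peaks within 5 kb gave CDX2 in 55.0% and 18.0% and HNF4A in 51.1% and 32.6% of the first 2 classes. CDX2 sites of both libraries gave 9.65% and 0%. Leaving out 1 CDX2 library gave CDX2 shares of 12.9% to 39.0% in windows empty in Cdx2 KO alone and 0% to 3.37% in those empty in Hnf4a KO alone.

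The ratio of Cdx2 KO to Hnf4a KO turned with the lists as deposited, to 1.01 at co-occupied sites and 1.17 at HNF4A peaks without CDX2, and was 0.747 at CDX2 sites without HNF4A. By construction this setting divides by a Hnf4a KO list with 485477 rows, against 262142 in Cdx2 KO. With the 150000 highest-scoring nucleosomes the ratio at co-occupied sites was 0.660, within 500 bp it was 0.777, and without scaling the ratio at HNF4A peaks without CDX2 was 0.912. Leaving out 1 CDX2 library gave ratios of 0.723 to 0.775 at co-occupied sites, 0.762 to 0.769 at CDX2 sites without HNF4A and 0.872 to 0.887 at HNF4A peaks without CDX2. Of 67 named regions, the sign of Cdx2 KO minus Hnf4a KO turned with the lists as deposited in 5, to -4 on chromosome 4 at 138800001, -1 on chromosome 9 at 8900001, -4 on chromosome 14 at 22575001, -10 on chromosome 9 at 40135001 and -2 on chromosome 7 at 119418017. In 6 more, all with an excess in Cdx2 KO, the Cdx2 KO share of the nucleosomes of both knockouts left its interval, with a difference of 0 to 6. With a score of 100 or more no sign turned, and 60 of the 67 regions kept that share within its interval. With the highest-scoring 150000 none turned, and 55 did. A region with 0 nucleosomes in 1 knockout keeps that share while any are left in the other. On chromosome 2 at 122115001 the difference went from -10 to -1 at a score of 100 or more, yet it is among the 60. The cause of the other shifts was not tested. Windows of 2 kb or shifted by 2.5 kb and a radius of 2 kb kept the counts within 1.5 times of those reported and the shares and ratios within their intervals; the shift, the CDX2 sites of both libraries and the settings on named regions and on ratios to WT were added after seeing the data. Empty means not on the list: without read counts, an unmarked window and one under the caller's limit could not be told apart.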

Other observations

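Peaks called only in a knockout stood apart from the WT sites. At 4476 CDX2 peaks called in Hnf4a KO and in neither WT library, the mean was 0.580 nucleosomes per peak in Cdx2 KO, 0.558 in Hnf4a KO and 0.555 in WT, and the ratio of Cdx2 KO to Hnf4a KO was 1.01 (0.959 to 1.07). At 2865 HNF4A peaks called in Cdx2 KO and not in WT the means were 2.99 in Cdx2 KO, 2.76 in Hnf4a KO and 2.75 in WT, with a ratio of 1.06 (1.03 to 1.09). Peaks that appeared without Hnf4a thus lay mostly in chromatin with few called nucleosomes in any genotype, and HNF4A peaks that appeared without Cdx2 lay in chromatin marked in all 3.

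The 62 windows marked in WT and empty in both knockouts held few factor peaks, with CDX2 in 8.06% (2.67 to 17.8) and HNF4A in 17.7% (9.20 to 29.5). They were empty in the library titled Cdx2-Cdx1 in 66.1% and in that titled Cdx2-Hnf4a in 67.7% of cases. A Hnf4a KO nucleosome below the threshold lay in 52 of the 62. The 75 windows empty in WT and marked in both knockouts had medians of 4 nucleosomes in Cdx2 KO, 3 in Hnf4a KO and 4 in each double knockout.

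The highest score the lists give, 3250, was reached by 4345 nucleosomes in Cdx2 KO, 2273 in Hnf4a KO and 3136 in WT.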
